A study of Mus musculus with 18 samples.

Results

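Iron handling in activated macrophages was followed through 10 mRNAs that a list names by their symbols: the transporters Slc11a1, Slc11a2, Slc39a14 and Slc40a1, the transferrin receptor Tfrc, the ferritin subunits Fth1 and Ftl1, the ferritin cargo receptor Ncoa4 and the regulators Aco1 and Ireb2. All 10 were rows of the deposited table of 11243 protein-coding genes, none was absent, and no filter on low values was applied to them. RAW264.7 mouse macrophages received vehicle (DMSO) as control, LPS at 500 ng/mL during 6 h, or that same LPS dose and time following a 15 min pretreatment with torin1 at 100 nM, which inhibits the kinase mTOR. Experiments were done 3 times, and from each of their 9 lysates both the total mRNA and the pool of mRNA on heavy polysomes, which carry many ribosomes, were sequenced. Torin1 without LPS was not among these 18 libraries, so that torin1 was read against LPS, and LPS with torin1 against control was not tested. RAW264.7 is a transformed line from a BALB/c mouse, a strain whose allele of Slc11a1 encodes a protein without function. The 18 libraries held between 27800983 and 47725557 counts on these genes.

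Macrophage markers were rows of the table for 10 of 11 listed genes and summed to between 11559 and 22204 CPM (counts scaled to library size) in each library, with Lyz2 the most abundant. The library sizes were adjusted by TMM, which sets the typical gene to the same level in all libraries. Of 7 listed symbols of LPS response genes, among which Irg1 and Acod1 name the same gene, 4 were rows, Irg1 with them, and their summed level was 316 to 636 CPM in control libraries and 11939 to 20206 CPM in libraries with LPS, so that the labels and the response went together. Among 8 erythroid markers Alas2 alone was a row, at 0.0976 to 1.08 CPM, and the 5 hepatocyte, 7 T and B cell and 8 fibroblast and epithelial markers were not rows of this table, from which genes with a library at 0 had been removed.

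Macrophages recycle the iron of aged red cells and move it between the phagosome, the cytosol and the blood. Iron enters through the transferrin receptor and through Slc11a2 and Slc39a14, is stored inside ferritin shells built of heavy and light subunits, and leaves through ferroportin, the product of Slc40a1. The iron regulatory proteins, encoded by Aco1 and Ireb2, bind stem-loops called iron-responsive elements when iron is scarce: in the 5′UTR, as in ferritin and ferroportin mRNA, they hinder translation, and in the 3′UTR, as in Tfrc mRNA, they protect the mRNA from decay. Ferritin and transferrin receptor mRNAs are therefore controlled after transcription, which is the reason for setting total beside polysome-associated mRNA.

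The elements were looked for in GENCODE transcripts of GRCm38 as a C, 5 further bases, the loop CAGUGN and 5 bases able to pair with the first 5, on the transcribed strand. The matches in the listed mRNAs are shown since they mark in which members these letters lie upstream and in which downstream of the coding sequence. Capitals mark the loop and the RNA reads 5′ to 3′.
Fth1: uuccugcuucaaCAGUGCuugaacggaac
Ftl1: gucuugcuucaaCAGUGUuugaacggaac
Slc40a1: caacuucagcuaCAGUGUuagcuaaguuu
Tfrc a: aauuaucggaagCAGUGCcuuccauaauu
Tfrc b: cauuaucgggagCAGUGUcuuccauaaug
Tfrc c: cuauaucggagaCAGUGAucuccauaugu
Tfrc d: aauuaucgggaaCAGUGUuucccauaauu
The match of Fth1 lay in its 5′UTR at chr19:9982732-9982760 (GRCm38, plus strand), 132 bases ahead of the coding sequence. That of Ftl1 lay in the 5′UTR at chr7:45459779-45459807 on the minus strand, and that of Slc40a1 in the 5′UTR at chr1:45925465-45925493, also on the minus strand. The 4 matches of Tfrc all lay in its 3′UTR on the plus strand, at chr16:32631219-32631247, chr16:32631598-32631626, chr16:32631663-32631691 and chr16:32631710-32631738. These letters were found in the 5′UTR of 12 of 10466 genes (0.115%) and in the 3′UTR of 68 of 10553 (0.644%). No other member held a match, which says only that these letters are not in its annotated UTRs, and a match is a description of the sequence. Slc11a2, though without a match, is on the list of iron-responsive element mRNAs used below.

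Per kilobase of annotated exon, the ferritin mRNAs were the most abundant members and Slc40a1 the least abundant in each of the 6 groups. In total mRNA of control cells the level was 1299.6 ± 92.8 CPM per kilobase for Ftl1 (mean ± SD, n = 3), 362 ± 79.5 for Fth1 and 116 ± 4.24 for Tfrc. Below these came Slc11a1 with 19.3 ± 1.21, Ireb2 with 17.1 ± 0.651, Aco1 with 14.6 ± 1.00 and Slc39a14 with 10.98 ± 0.858 CPM per kilobase. The lowest levels were 8.77 ± 0.495 for Slc11a2, 4.27 ± 0.702 for Ncoa4 and 0.164 ± 0.0218 for Slc40a1. No neighbours in this order overlapped over the 3 control libraries, the nearest being Slc11a1, whose lowest value was 17.98, and Ireb2, whose highest was 17.9. The order rests on counts that are uncertain for 2 members: other annotated genes share 87.4% of the 25-base words of Ftl1 mRNA, mostly Ftl1-ps1, and 45.5% of those of Ncoa4, mostly Gm6768. The share was 10.8% for Fth1, which has pseudogenes too. Slc11a2 overlaps Gm5475 on the opposite strand, and Ftl1 overlaps Gm10252 on the opposite and Gm22133 on the same strand. The order also depends on the length used. All annotated exons together span 10550 bases for Slc39a14, 6354 for Slc11a2 and 4496 for Aco1. Their mRNAs held 4902, 3001 and 3808 of the 25-base words, a number close to their length in bases. An order by mRNA length was not made.

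**Figure D1:**
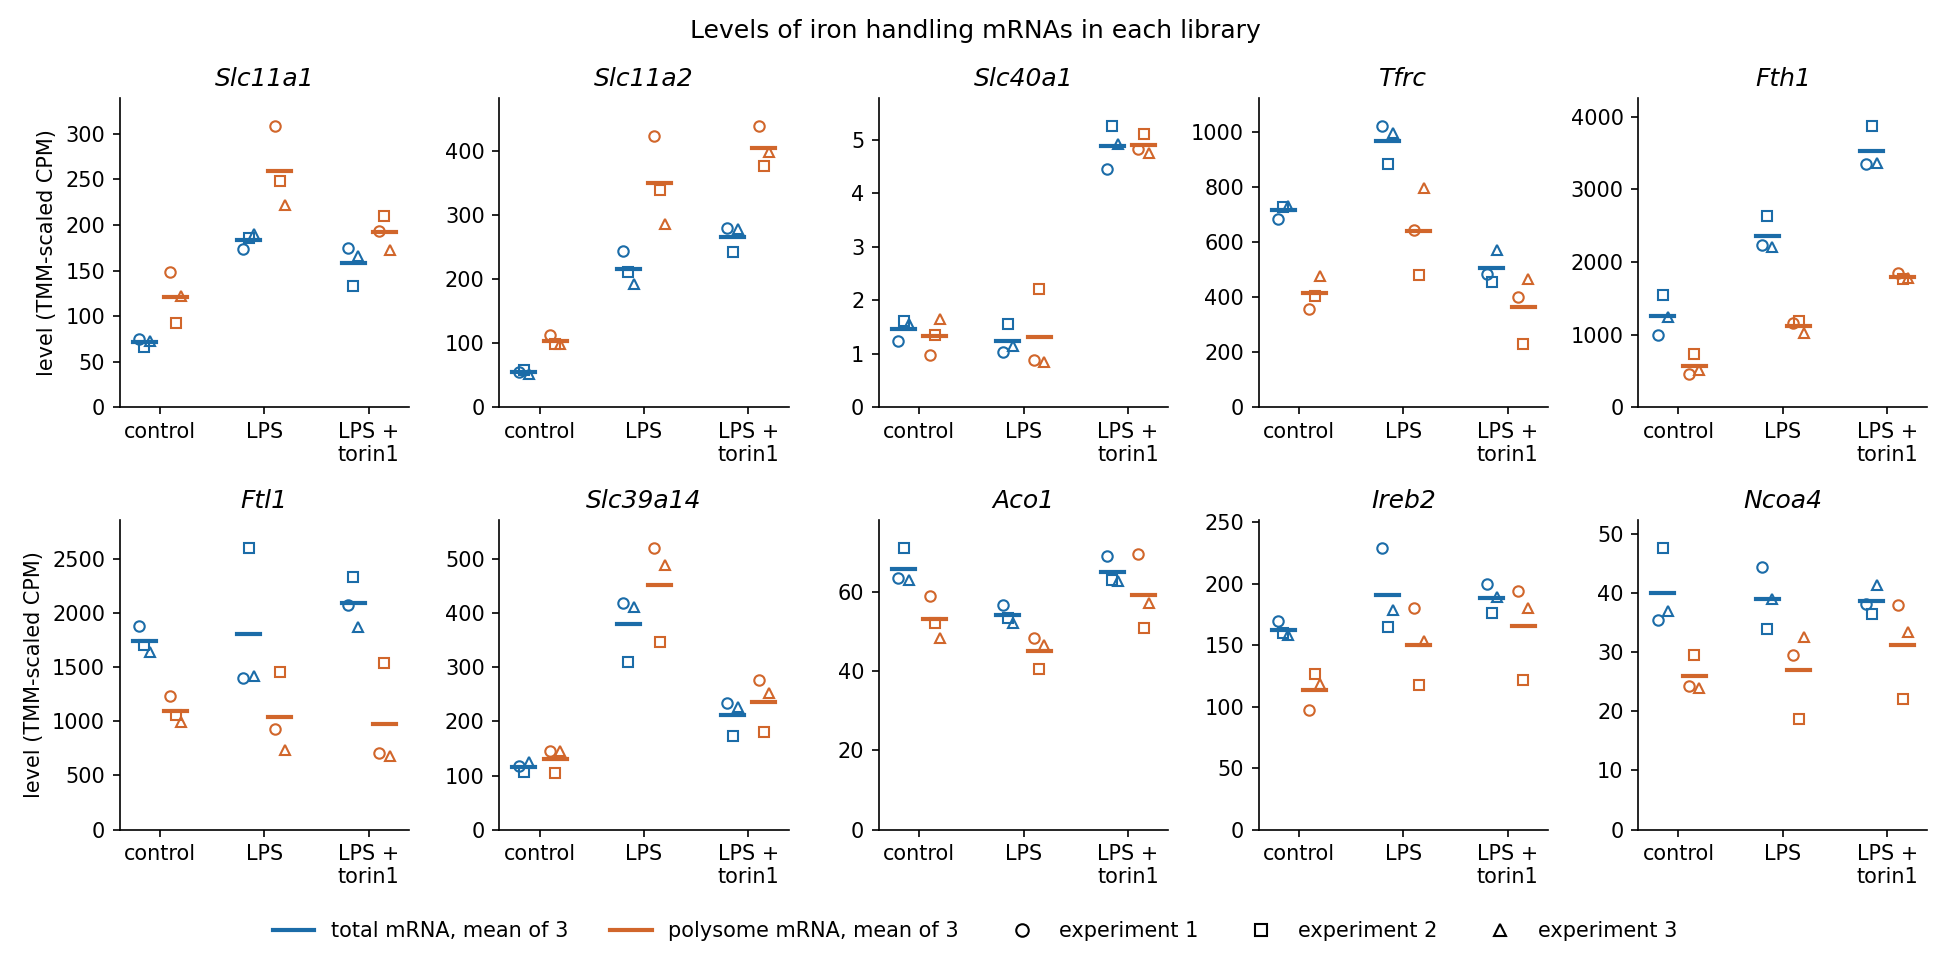
Levels of the 10 mRNAs in each of 18 libraries, in TMM-scaled CPM on axes that start at 0, by treatment, with total mRNA in blue, polysome mRNA in orange, symbols for the 3 experiments and bars for their mean. Slc11a2 in total mRNA stands at 55.7, 58.9 and 52.6 in control and at 243, 211 and 192 with LPS, and Ftl1 of experiment 2 stands above the other experiments with LPS.

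Of the members, Slc11a2 had the largest change with LPS in total mRNA. Slc11a2 (chr15:100387898-100425072, GRCm38), also called DMT1, carries ferrous iron across endosomal and plasma membranes, and its level in total mRNA was 55.7, 58.9 and 52.6 CPM in control, 243, 211 and 192 CPM with LPS and 279.5, 242 and 278 CPM with LPS and torin1. In polysome mRNA it was 113.02, 98.2 and 98.1 CPM in control, 423, 339 and 286 CPM with LPS and 439, 376 and 399 CPM with LPS and torin1. Control libraries lay far below both other groups in either RNA type, without overlap. The mRNA was 3.87-fold higher with LPS than in control in total mRNA, a log2 fold change of 1.95 ± 0.12 (SE; edgeR adjusted p = 1.30e-06), and 3.39-fold higher in polysome mRNA, 1.76 ± 0.17 (4.09e-05), in 3 of 3 experiments each. All changes are relative to the typical gene, since the amount of mRNA per cell was not measured, and in bulk RNA a change in the share of responding cells and a change within each cell cannot be told apart. A gene was taken to pass at an adjusted p of at most 0.25, by edgeR's quasi-likelihood test with Benjamini-Hochberg adjustment over 11243 genes. Torin1 added 0.30 ± 0.11 in total mRNA (edgeR adjusted p = 0.0679), and this call was lost without experiment 3 (0.20, 0.433). In polysome mRNA the torin1 difference was 0.23 ± 0.17 (edgeR adjusted p = 0.381) and did not pass, but it passed with library totals in place of TMM (0.30, 0.226) and with a replicate block (0.25, 0.1804).

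Slc11a1 (chr1:74375195-74386062), or NRAMP1, exports divalent metals from the phagosome. Its level in total mRNA was 75.4, 66.6 and 72.4 CPM in control, 174, 186 and 190.3 CPM with LPS and 175, 133 and 166 CPM with LPS and torin1, and in polysome mRNA 148, 92.2 and 122 CPM in control, 308, 248 and 222 CPM with LPS and 193, 210.0 and 172 CPM with LPS and torin1. LPS libraries lay above control libraries in both RNA types, and torin1 libraries overlapped LPS libraries in total mRNA alone. The LPS change was 1.36 ± 0.12 on the log2 scale in total (edgeR adjusted p = 1.22e-05) and 1.10 ± 0.20 in polysome mRNA (0.00195), upward in 3 of 3 experiments each. With torin1 it was lower than with LPS alone by a small margin, −0.21 ± 0.12 in total (edgeR adjusted p = 0.195, lower in 2 of 3 experiments) and −0.41 ± 0.20 in polysome mRNA (0.196, lower in 3 of 3). In total mRNA the value without experiment 1 was −0.33 and passed (edgeR adjusted p = 0.140), while the call was lost without experiment 2 (−0.094, 0.597), without experiment 3 (−0.22, 0.439), with control libraries left out of the fit (−0.22, 0.261) and with library totals in place of TMM (−0.14, 0.437). In polysome mRNA it was lost without experiment 1 (−0.27, edgeR adjusted p = 0.594) and without experiment 3 (−0.43, 0.511).

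Slc39a14 (chr14:70303469-70351425), the zinc and iron importer ZIP14, rose with LPS and was lower with torin1 than with LPS alone. Its level in total mRNA was 116.997, 106.32 and 124.32 CPM in control, 419, 309.9 and 411 CPM with LPS and 234, 174 and 226 CPM with LPS and torin1. In polysome mRNA it was 145, 104 and 144 CPM in control, 520.1, 347 and 489 CPM with LPS and 277, 179.7 and 252 CPM with LPS and torin1. With LPS all libraries lay above those of the other groups, and with torin1 all lay above control, a difference that was not tested. The log2 fold change of LPS against control was 1.71 ± 0.15 in total (edgeR adjusted p = 1.43e-05) and 1.78 ± 0.22 in polysome mRNA (0.000184). That of LPS plus torin1 against LPS was −0.85 ± 0.15 in total (edgeR adjusted p = 0.00293) and −0.91 ± 0.22 in polysome mRNA (0.0205), with 3 of 3 experiments higher with LPS and 3 of 3 lower with torin1.

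Tfrc (chr16:32608920-32632794), the receptor for transferrin-bound iron and the carrier of the 3′UTR stem-loops printed above, was lower with torin1 than with LPS alone. Its level in total mRNA was 684, 729 and 731 CPM in control, 1020.2, 883 and 996 CPM with LPS and 485, 454 and 572 CPM with LPS and torin1. In polysome mRNA it was 358, 406 and 478 CPM in control, 644, 479.6 and 794 CPM with LPS and 402, 229 and 466 CPM with LPS and torin1. Total mRNA separated the 3 treatments without overlap, torin1 lowest, and in polysome mRNA LPS libraries lay above both other groups, which overlapped. The torin1 change was −0.94 ± 0.11 on the log2 scale in total mRNA (edgeR adjusted p = 0.000419; 3.37% of all genes had a lower value) and −0.78 ± 0.26 in polysome mRNA (0.0717), downward in 3 of 3 experiments each. The polysome call was lost without experiment 1 (−0.85, edgeR adjusted p = 0.301) and without experiment 3 (−0.80, 0.261). LPS against control gave 0.44 ± 0.11 in total (edgeR adjusted p = 0.00990) and 0.62 ± 0.26 in polysome mRNA (0.0918), upward in 3 of 3 experiments each, the latter lost without experiment 1 (0.53, 0.431) or 3 (0.57, 0.259). The LPS change of Tfrc was relative to the typical gene: with library totals in place of TMM, a choice made after the data were seen, it was 0.069 in total (edgeR adjusted p = 0.608) and 0.27 in polysome mRNA (0.422), and neither passed.

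Slc40a1 (chr1:45908068-45926523) encodes the iron exporter ferroportin, and was higher with torin1 than with LPS alone. Its level in total mRNA was 1.25, 1.61 and 1.55 CPM in control, 1.03, 1.56 and 1.14 CPM with LPS and 4.45, 5.25 and 4.92 CPM with LPS and torin1. In polysome mRNA it was 0.978, 1.36 and 1.64 CPM in control, 0.879, 2.22 and 0.841 CPM with LPS and 4.83, 5.11 and 4.75 CPM with LPS and torin1. These were 27 to 216 counts a library, and all 6 torin1 libraries lay above all 12 others. Torin1 raised the mRNA 3.89-fold over LPS in total mRNA, 1.96 ± 0.22 on the log2 scale (edgeR adjusted p = 0.000286), and 3.75-fold in polysome mRNA, 1.91 ± 0.38 (0.00989), in 3 of 3 experiments each. The polysome value differed between experiments, at 2.46, 1.20 and 2.50, and ran from 1.70 to 2.50 over the alternatives. In all, 86 of 11243 genes had a higher torin1 value in total mRNA. LPS against control gave −0.24 ± 0.23 in total (edgeR adjusted p = 0.426) and −0.0040 ± 0.38 in polysome mRNA (0.995), which did not pass. Without experiment 2 the polysome value was −0.63 and passed (edgeR adjusted p = 0.178), and with library totals the total mRNA value was −0.60 and passed (0.0418).

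The ferritin heavy chain mRNA, Fth1 (chr19:9980598-9985098), whose product oxidizes iron as it is stored, was higher with LPS than in control and higher again with torin1. Fth1 stood at 991, 1542 and 1238 CPM in control, 2236, 2635 and 2201 CPM with LPS and 3346, 3869 and 3365 CPM with LPS and torin1 in total mRNA. Its polysome mRNA stood at 458, 739 and 515 CPM in control, 1160.3, 1186 and 1026 CPM with LPS and 1846, 1771 and 1782 CPM with LPS and torin1. The 3 treatments did not overlap in either RNA type, in the order control, LPS, LPS with torin1. In total mRNA the log2 fold change was 0.91 ± 0.16 for LPS against control (edgeR adjusted p = 0.00111) and 0.58 ± 0.16 for torin1 against LPS (0.0216). In polysome mRNA these were 0.98 ± 0.19 (edgeR adjusted p = 0.00252) and 0.70 ± 0.19 (0.0320). Every one of these 4 changes was upward in 3 of 3 experiments. The torin1 call in polysome mRNA was lost without experiment 3 (0.66, edgeR adjusted p = 0.296). With library totals the LPS changes were 0.54 in total and 0.62 in polysome mRNA and passed (edgeR adjusted p = 0.0107 and 0.0232).

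Ftl1 (chr7:45457944-45459884), the ferritin light chain, gave no treatment change that passed, and its experiments disagreed. Total mRNA held 1881, 1703 and 1641 CPM in control, 1399, 2594 and 1416 CPM with LPS and 2068, 2327 and 1866 CPM with LPS and torin1. Polysome mRNA held 1234, 1058 and 995 CPM in control, 931, 1455 and 736 CPM with LPS and 705, 1539 and 682 CPM with LPS and torin1. The treatments overlapped, and experiment 2 was the highest of its group with LPS and with torin1 in both RNA types but not in control. LPS against control was 0.050 ± 0.22 in total (edgeR adjusted p = 0.870) and −0.072 ± 0.34 in polysome mRNA (0.894), with −0.43, 0.61 and −0.21 in the 3 experiments for total mRNA. Without experiment 2 these became −0.32 (edgeR adjusted p = 0.0952) and −0.43 (0.0789) and passed, and with library totals the total mRNA value was −0.32 and passed (0.236). Torin1 against LPS was 0.21 ± 0.22 in total (edgeR adjusted p = 0.504), 0.48 without experiment 2 (0.0443), and −0.067 ± 0.34 in polysome mRNA (0.920). The part that reads shared with its pseudogenes have in this spread was not tested.

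Ncoa4 (chr14:32159865-32179855), which brings ferritin to the lysosome for iron release, ranged over 33.8 to 47.5 CPM in total and 18.6 to 38.0 CPM in polysome mRNA, with overlapping treatments. Its LPS difference was −0.035 ± 0.14 in total (edgeR adjusted p = 0.856) and 0.053 ± 0.24 in polysome mRNA (0.890), and its torin1 difference −0.015 ± 0.14 (0.948) and 0.23 ± 0.24 (0.556). Here too experiment 2 mattered: without it the LPS values were 0.20 (edgeR adjusted p = 0.226) and 0.36 (0.0960) and passed, while library totals gave −0.40 in total mRNA, which passed in the other direction (0.0231).

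Aco1 (chr4:40143081-40198338), a cytosolic aconitase that becomes iron regulatory protein 1 when it loses its iron-sulfur cluster, had a level in total mRNA of 63.4, 70.9 and 62.9 CPM in control, 56.7, 53.5 and 52.2 CPM with LPS and 69.1, 63.1 and 62.6 CPM with LPS and torin1. Its polysome level was 58.8, 52.2 and 48.3 CPM in control, 48.3, 40.5 and 46.5 CPM with LPS and 69.6, 50.9 and 57.2 CPM with LPS and torin1. All LPS libraries lay below the control and torin1 libraries, by a narrow margin from control in polysome mRNA. Aco1 fell with LPS in total mRNA, −0.28 ± 0.091 on the log2 scale (edgeR adjusted p = 0.0279), or −0.65 with library totals (0.000199). The polysome value, −0.24 ± 0.15 (edgeR adjusted p = 0.266), did not pass, but it passed with library totals (−0.59, 0.00936) and with a replicate block (−0.24, 0.149). Torin1 raised Aco1 over LPS by 0.26 ± 0.091 in total (edgeR adjusted p = 0.0526) and 0.42 ± 0.15 in polysome mRNA (0.0980), in 3 of 3 experiments each, the latter lost without experiment 1 (0.34, 0.395) or 3 (0.48, 0.390).

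Ireb2 (chr9:54863789-54912530) encodes iron regulatory protein 2, and its total mRNA stood at 169.5, 160.0 and 158 CPM in control, 229, 165 and 178 CPM with LPS and 199.8, 176 and 189 CPM with LPS and torin1. Its polysome mRNA was at 96.9, 126 and 118.10 CPM in control, 179.8, 117.229 and 153 CPM with LPS and 194, 122 and 180.1 CPM with LPS and torin1. Control and LPS libraries overlapped in both RNA types. It passed with LPS in total, 0.23 ± 0.13 (edgeR adjusted p = 0.164, higher in 3 of 3 experiments), and in polysome mRNA, 0.40 ± 0.21 (0.173, higher in 2 of 3). Both Ireb2 calls depended on single experiments and on the scaling. Without experiment 1 the values were 0.12 (edgeR adjusted p = 0.428) and 0.15 (0.766), and without experiment 3 they were 0.25 (0.338) and 0.42 (0.413). The polysome value without experiment 2 was 0.62 (edgeR adjusted p = 0.0148). With library totals they were −0.14 (0.333), the opposite sign, and 0.036 (0.901). Its torin1 differences, −0.016 ± 0.13 in total (edgeR adjusted p = 0.939) and 0.16 ± 0.21 in polysome mRNA (0.644), did not pass.

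Counted together, 7 of 10 members passed for LPS against control in total mRNA, 6 higher and 1 lower, where 66.5% of all genes passed. In polysome mRNA 6 passed, 6 of them higher, against 55.1% of all genes. For torin1 against LPS 7 members passed in total mRNA (4 up, 3 down), against 53.7% of all genes, and 6 in polysome mRNA, 3 higher and 3 lower, against 38.4%. The polysome count was 3 without experiment 1 and 2 without experiment 3, beside 1782 and 1187 of all genes. Whether the members differ from other genes in these shares was not tested. The median LPS change of the members was 0.33 in total and 0.51 in polysome mRNA, beside −0.018 and −0.031 for all genes. The LPS and the torin1 comparisons share the LPS libraries. Experiments paired the libraries of total mRNA, and with the experiment as a replicate block no call of a member there changed (Slc11a2 1.95, Slc39a14 1.70 and Fth1 0.92 for LPS, and Slc40a1 1.97 and Tfrc −0.94 for torin1, on the log2 scale). In polysome mRNA the block added Aco1 for LPS and Slc11a2 for torin1. There 7 members passed in each comparison, beside 7062 and 5587 of all genes. TMM mattered for LPS: scaled by library totals alone, the median gene shifted by −0.37 in total and −0.35 in polysome mRNA. The share of passing genes that were higher then went from 48.4% to 19.8% in total and from 47.9% to 20.1% in polysome mRNA, and the members split into 4 higher and 4 lower in total and 4 higher and 1 lower in polysome mRNA.

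**Figure D2:**
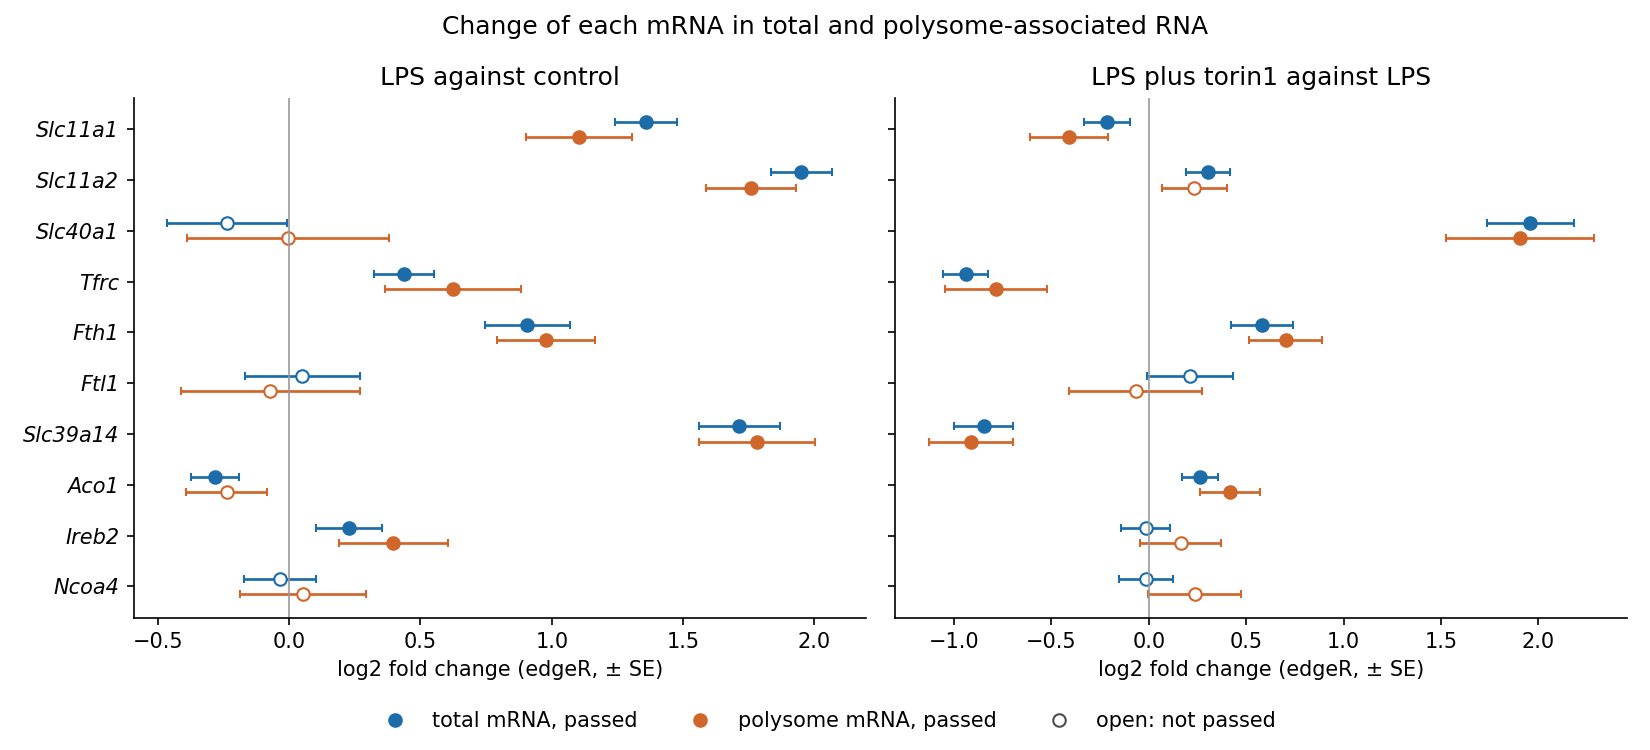
Log2 fold change of each member with its SE, for LPS against control (left) and LPS plus torin1 against LPS (right), in total (blue) and polysome mRNA (orange); filled points passed at an adjusted p of at most 0.25. Slc11a2 has the highest LPS value in total mRNA, 1.95, and Slc40a1 the highest torin1 value, 1.96.

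Whether the members were over- or under-represented on heavy polysomes was read as the polysome level minus the total level of the same lysate on the log2 scale, where 0 is the typical mRNA. Fth1 was at −1.11, −1.06 and −1.27 in the 3 control lysates, −0.95, −1.15 and −1.10 with LPS and −0.86, −1.13 and −0.92 with LPS and torin1. Its share on polysomes was thus below the typical mRNA in all 9 lysates, and over the joint fit of 18 libraries the difference was −1.14 ± 0.18 (edgeR adjusted p = 0.000186), −1.07 ± 0.18 (0.000261) and −0.97 ± 0.18 (0.000851). Ftl1 was at −0.61, −0.69 and −0.72 in control, −0.59, −0.83 and −0.94 with LPS and −1.55, −0.60 and −1.45 with torin1, while Tfrc was at −0.94, −0.84 and −0.61 in control, −0.66, −0.88 and −0.33 with LPS and −0.27, −0.99 and −0.30 with torin1. Both lay below 0 in all 9 lysates, and both passed in each treatment, with −0.67 ± 0.31, −0.79 ± 0.31 and −1.10 ± 0.31 for Ftl1 (edgeR adjusted p = 0.0798, 0.0466 and 0.0132) and −0.79 ± 0.22, −0.60 ± 0.22 and −0.46 ± 0.22 for Tfrc (0.00750, 0.0357 and 0.114). The Tfrc call with torin1 was lost without experiment 1 (−0.54, edgeR adjusted p = 0.257) or 2 (−0.29, 0.261). These fits do not pair the total and polysome RNA of a lysate. With each lysate as a replicate block the edgeR adjusted p for Ftl1 was 0.00159 in control, 0.000596 with LPS and 5.37e-05 with torin1. For Tfrc it was 0.000299, 0.00202 and 0.00880 in that order.

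The transporters Slc11a2 and Slc11a1 lay on the other side. Slc11a2 was at 1.02, 0.74 and 0.90 in control, 0.80, 0.68 and 0.58 with LPS and 0.65, 0.64 and 0.52 with torin1, above 0 in all 9 lysates, and passed in each treatment (edgeR adjusted p = 0.000213, 0.00108 and 0.00436). Slc11a1 was 0.76 ± 0.17 in control (edgeR adjusted p = 0.00179), 0.50 ± 0.16 with LPS (0.0219) and 0.28 ± 0.16 with torin1 (0.206). The call with LPS was lost without experiment 1 (0.31, edgeR adjusted p = 0.257) and that with torin1 without experiment 2 (0.10, 0.714) or 3 (0.39, 0.266). Slc40a1, which carries a 5′UTR stem-loop as the ferritins do, was at −0.15 ± 0.31, 0.081 ± 0.32 and 0.0058 ± 0.29 and passed in none of the treatments (edgeR adjusted p = 0.709, 0.859 and 0.991), at low counts.

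Among the others, Ncoa4, Ireb2 and Aco1 were under-represented on polysomes in control (−0.63 ± 0.21, −0.51 ± 0.18 and −0.31 ± 0.12; edgeR adjusted p = 0.0218, 0.0290 and 0.0461) and with LPS (−0.54 ± 0.21, −0.34 ± 0.18 and −0.26 ± 0.12; 0.0499, 0.139 and 0.0924). The values with torin1, −0.31 ± 0.21, −0.19 ± 0.18 and −0.13 ± 0.12, did not pass (edgeR adjusted p = 0.276, 0.456 and 0.431). The Aco1 call was lost in control without experiment 3 (−0.27, edgeR adjusted p = 0.262) and with LPS without experiment 2 (−0.20, 0.287), and the Ireb2 call with LPS without experiment 3 (−0.40, 0.288). Slc39a14 was at 0.18 ± 0.20, 0.25 ± 0.20 and 0.16 ± 0.20 and did not pass (edgeR adjusted p = 0.468, 0.316 and 0.559). Without experiment 2 its values, 0.26, 0.28 and 0.20, passed in the 3 treatments (edgeR adjusted p = 0.0695, 0.0666 and 0.230). Total and polysome RNA of a lysate are paired, and with each lysate as a replicate block Slc39a14 passed in all 3 treatments (edgeR adjusted p = 0.149, 0.0424 and 0.211) and Ireb2 (0.153) and Ncoa4 (0.0523) passed with torin1.

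In all, 8 of 10 members passed in control, 2 above and 6 below the typical mRNA, while 69.6% of all genes passed. With LPS 8 passed, 2 above and 6 below, against 65.2% of all genes, and with torin1 5 passed, 2 above and 3 below, against 55.6%. With the lysate as a block 9 members passed in control, 9 with LPS and 8 with torin1, and of all genes 8991 instead of 7823, 8647 instead of 7328 and 7926 instead of 6252. The median of the members was −0.41, −0.30 and −0.16 in the 3 treatments, beside 0.028, 0.036 and 0.0050 for all genes.

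**Figure D3:**
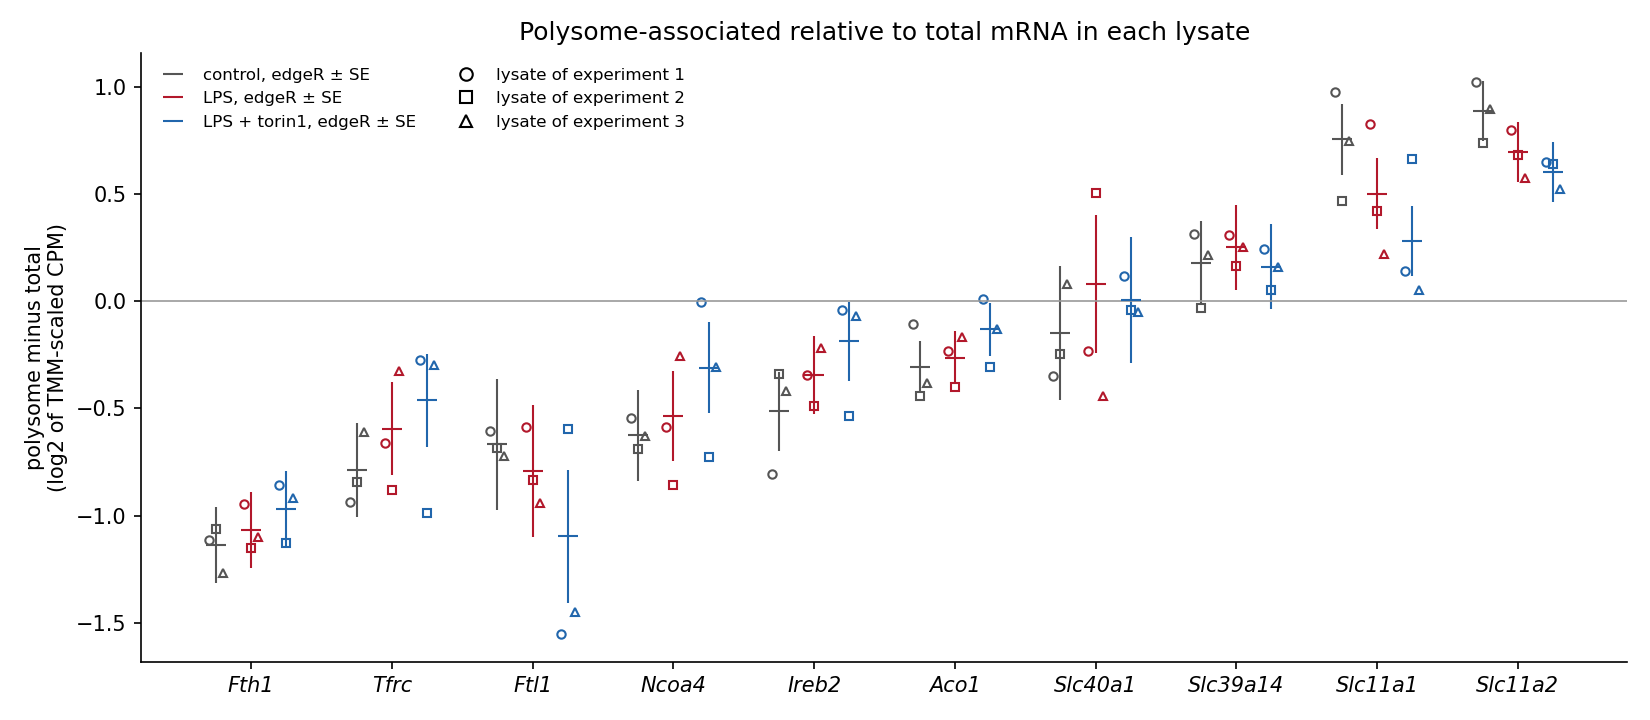
Polysome minus total level (log2 of TMM-scaled CPM) of each member in each lysate (symbols, one per experiment) with the edgeR estimate ± SE (bars), by treatment; 0 is the typical mRNA and genes are ordered by the control estimate. Fth1 lies below 0 in all 9 lysates and Slc11a2 above 0 in all 9.

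The length of the coding sequence, which limits how many ribosomes an mRNA can hold, was set beside these values. The coding sequence of Fth1 has 549 bases and that of Ftl1 552, the shortest of the members. In control the median polysome minus total value of the 1363 genes with under 600 coding bases was 0.49, above 0, and that of the 1460 genes with 3000 or more was −0.31. Across 10716 genes with a known length Spearman's rho was −0.28, a description over genes that share the same libraries. Of the 1363 genes under 600 bases, 22 had a lower value than Fth1 in control, 25 with LPS and 30 with torin1, and 74, 54 and 21 had a lower value than Ftl1. Tfrc, with 2292 coding bases, lay below the median of −0.19 of the 1696 genes of 2000 to 3000 bases. Binding of the iron regulatory proteins was not measured, and its part and that of coding length in these values were not tested.

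**Figure D4:**
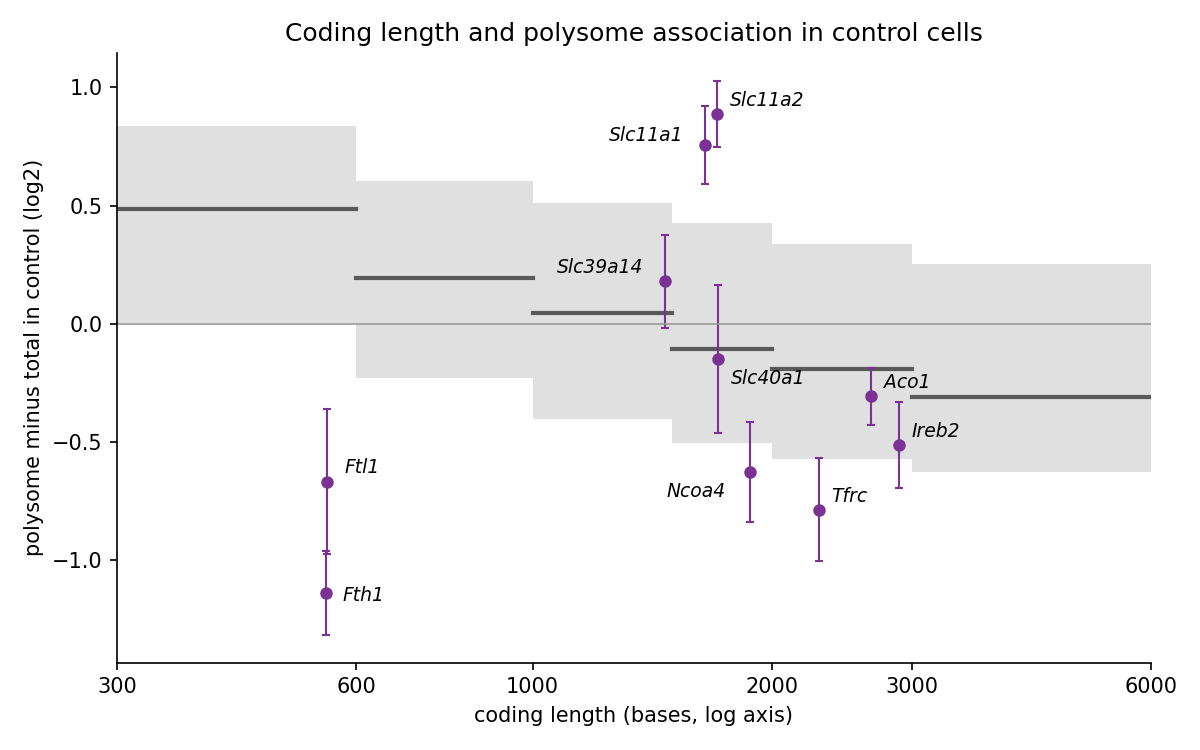
Polysome minus total level in control (log2) against coding length in bases (log axis) for the 10 members (points, edgeR ± SE), over the median (lines) and the interquartile range (grey) of all genes in 6 length classes; the outer classes hold all shorter and longer genes. Fth1 and Ftl1 lie below the grey range of the shortest class, whose median is 0.49.

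Whether LPS or torin1 shifted the members between RNA types was tested as the change in polysome mRNA minus that in total mRNA, the interaction of RNA type and treatment. For LPS against control no member passed, nor did any gene (0% by edgeR; 44 genes had an unadjusted p under 0.05, DESeq2 passed 1 gene, analysis of partial variance 13 and edgeR with each lysate as a block 0). For torin1 against LPS edgeR again passed 0% (110 genes at an unadjusted p under 0.05), DESeq2 13 genes, analysis of partial variance 24 and the lysate block 25, with none of the 10 members among them. The difference of changes for LPS was −0.25 ± 0.23 for Slc11a1, −0.19 ± 0.20 for Slc11a2, 0.072 ± 0.28 for Slc39a14, 0.23 ± 0.45 for Slc40a1, 0.19 ± 0.31 for Tfrc, 0.071 ± 0.25 for Fth1, −0.12 ± 0.43 for Ftl1, 0.091 ± 0.30 for Ncoa4, 0.044 ± 0.17 for Aco1 and 0.17 ± 0.26 for Ireb2. It was below 0 in 3 of 3 experiments for Slc11a1 and Slc11a2. For torin1 it was −0.22 ± 0.23 for Slc11a1, −0.093 ± 0.20 for Slc11a2, −0.090 ± 0.28 for Slc39a14, −0.075 ± 0.44 for Slc40a1, 0.13 ± 0.31 for Tfrc, 0.10 ± 0.25 for Fth1, −0.30 ± 0.43 for Ftl1, 0.23 ± 0.30 for Ncoa4, 0.13 ± 0.17 for Aco1 and 0.16 ± 0.26 for Ireb2, below 0 in 3 of 3 experiments for Slc11a2 and Slc39a14 and above 0 in 3 of 3 for Fth1 and Aco1. The edgeR adjusted p of these 20 values was 1.000 when rounded. How many of all genes had the same sign in 3 of 3 experiments was not counted, so that these signs were not read as shifts. The values moved with the experiments used. For torin1 leaving out each experiment gave −0.44 (without experiment 2) to 0.076 (without experiment 1) for Slc11a1, −0.75 (without experiment 2) to −0.0026 (without experiment 1) for Ftl1 and −0.23 to 0.37 (without experiment 2) for Slc40a1. An unadjusted p under 0.05 was reached by Ftl1 for torin1 without experiment 2 (edgeR adjusted p = 0.830). For LPS Slc40a1 was at −0.25 without experiment 2 and 0.56 without experiment 3, and without experiment 3 Aco1 was at −0.037 and Ncoa4 at −0.072. The other signs, those of 7 members for LPS and 8 for torin1, stayed when an experiment was left out. An adjusted p above the threshold does not show that there was no shift.

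Analysis of partial variance, which fits polysome on total mRNA with its own slope for each gene, gave for LPS 1.26 for Slc11a1, −0.55 for Slc11a2, −0.64 for Slc39a14, 0.37 for Slc40a1, −0.58 for Tfrc, 0.20 for Fth1, −0.11 for Ftl1, 0.062 for Ncoa4, 0.034 for Aco1 and 0.11 for Ireb2, and for torin1 −0.45 for Slc11a1, −0.14 for Slc11a2, 0.27 for Slc39a14, −1.95 for Slc40a1, 1.73 for Tfrc, 0.18 for Fth1, −0.46 for Ftl1, 0.22 for Ncoa4, 0.13 for Aco1 and 0.14 for Ireb2, each at a limma adjusted p of at least 0.791. The sign differed from that of edgeR for Slc11a1, Slc39a14 and Tfrc for LPS and for Slc39a14 for torin1. The slope was 2.73 for Tfrc and 2.02 for Slc40a1, outside the range of −1 to 2 within which the study counted a change as one of translation, so that the values of these 2 members, among them that of Tfrc for torin1 with an unadjusted p under 0.05, were not read as shifts. The other 8 slopes lay inside it, from −0.11 for Slc11a1 to 1.42 for Slc39a14. Of the genes that passed, 11 of 13 for LPS and 22 of 24 for torin1 had a slope inside this range.

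Wider lists of iron and haem genes held 86 further genes, of which 67 were rows. With LPS 44 of these passed in total mRNA (16 up, 28 down), or 65.7% beside 66.5% of all genes, and 37 in polysome mRNA (14 up, 23 down), or 55.2% beside 55.1%. Scaled by library totals the split was 5 higher and 47 lower in total and 4 higher and 43 lower in polysome mRNA. Of all genes 1722 were then higher and 6966 lower in total mRNA, and 1539 higher and 6101 lower in polysome mRNA. With torin1 against LPS 34 passed in total (50.7% beside 53.7% of all genes), 17 higher and 17 lower, and 28 in polysome mRNA (41.8% beside 38.4%), 15 higher and 13 lower. With library totals the torin1 split was 21 higher and 11 lower in total and 16 higher and 10 lower in polysome mRNA. For all genes that split was 3586 higher and 2342 lower in total and 2667 higher and 1629 lower in polysome mRNA. Over the 67 genes together the shares that passed thus lay near those of all genes. For torin1 in polysome mRNA 11 of them passed without experiment 1 and 2 without experiment 3, beside 1782 and 1187 of all genes. Single lists with their members ranged for LPS in total mRNA from 37.5% (storage and chaperones) to 88.9% (haem), a difference that was not tested. The median LPS change of the further genes was −0.14 in total and −0.18 in polysome mRNA. Mitochondrial iron and iron-sulfur cluster genes, 30 of 30 of them rows, were 5 higher and 14 lower with LPS in total and 4 higher and 11 lower in polysome mRNA, with medians of −0.17 and −0.19. Haem genes, 18 of 22 rows, were 6 higher and 10 lower in total and 4 higher and 8 lower in polysome mRNA. In total mRNA 63.3% of the mitochondrial and 88.9% of the haem genes passed, beside 66.5% of all genes (32.2% higher, 34.3% lower). In polysome mRNA these were 50% and 66.7%, beside 55.1% (26.4% higher, 28.7% lower). The lists that hold the members gave, members included, 5 higher and 3 lower of 12 iron transport genes in total and 5 higher and 3 lower in polysome mRNA, 2 higher and 1 lower and 2 higher and 0 lower of 8 storage and chaperone genes, and 4 higher and 1 lower and 5 higher and 1 lower of 8 regulators. With library totals the counts in total mRNA were 1 higher and 24 lower for the mitochondrial list, 3 higher and 12 lower for haem, 4 higher and 7 lower for transport, 1 higher and 4 lower for storage and chaperones and 0 higher and 3 lower for regulators. In polysome mRNA they were 1 higher and 23 lower for the mitochondrial list, 2 higher and 11 lower for haem, 4 higher and 5 lower for transport, 1 higher and 2 lower for storage and chaperones and 0 higher and 2 lower for regulators. With library totals most of the genes passing for LPS were lower among all genes too, by the counts given above. The 9 mRNAs listed for an iron-responsive element include the members Fth1, Ftl1, Slc40a1, Tfrc and Slc11a2. Of the 9, 3 higher and 1 lower passed in total (2 higher and 6 lower with library totals) and 3 higher and 1 lower in polysome mRNA (2 higher and 3 lower with library totals). That is 44.4% in each RNA type, beside 66.5% and 55.1% of all genes. The 3 higher ones were the members Slc11a2, Fth1 and Tfrc in both RNA types.

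Of these further genes, 8 passed with LPS at a fitted change of at least 2-fold in total or polysome mRNA. The sign, though not always the 2-fold size, held in 3 of 3 experiments. The share of all genes that meet this rule is not given here. Changes of this size were common: 7.76% of all genes had a lower LPS value than Fdxr in polysome mRNA. In total mRNA 93.8% had a lower value than Hmox1. Cp, the ferroxidase ceruloplasmin that loads iron onto transferrin, went from 3.04 ± 1.15 to 24.1 ± 6.85 CPM in total mRNA (mean ± SD, n = 3) and to 41.7 ± 12.9 with torin1. Its LPS change was 2.97 ± 0.33 on the log2 scale in total (edgeR adjusted p = 5.32e-05) and 2.96 ± 0.35 in polysome mRNA (0.000130). Steap3, the ferrireductase of the transferrin cycle, fell from 32.1 ± 4.35 to 7.46 ± 2.05 CPM in polysome mRNA, −2.10 ± 0.24 (edgeR adjusted p = 0.000110), and by 1.69 in total mRNA (0.00130). Slc25a37, or mitoferrin 1, carries iron into mitochondria and followed Fth1 in its order: its total mRNA stood at 47.1 ± 5.41 CPM in control, 139 ± 10.8 with LPS and 327 ± 36.5 with torin1. The log2 fold changes were 1.56 ± 0.13 for LPS (edgeR adjusted p = 7.35e-06) and 1.24 ± 0.12 for torin1 (0.000183) in total, and 1.82 ± 0.21 (0.000112) and 1.02 ± 0.20 (0.00986) in polysome mRNA. Hmox1, which frees iron from haem, stood at 65.6 ± 6.84, 166 ± 15.1 and 288 ± 41.2 CPM in the same order, 1.34 ± 0.13 for LPS (edgeR adjusted p = 2.93e-05) and 0.79 ± 0.13 for torin1 (0.00203).

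Abcg2, a haem and porphyrin exporter with 19 to 126 counts a library, rose from 0.653 ± 0.0463 to 2.03 ± 0.902 CPM in total mRNA, 1.64 ± 0.43 (edgeR adjusted p = 0.00989). Hscb, a chaperone of iron-sulfur cluster transfer, Abcb10, a mitochondrial transporter that acts in haem synthesis, and Fdxr, the ferredoxin reductase, fell in polysome mRNA by 1.38, 1.20 and 1.13 (edgeR adjusted p = 0.0212, 0.00302 and 0.00645). Against LPS, torin1 raised Hscb by 0.75 ± 0.21 and Abcb10 by 0.68 ± 0.17 in total mRNA (edgeR adjusted p = 0.0231 and 0.0138), while Fdxr gave 0.26 ± 0.23 (0.437), which did not pass, but was 0.56 without experiment 2 and passed (0.0983).

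**Figure D5:**
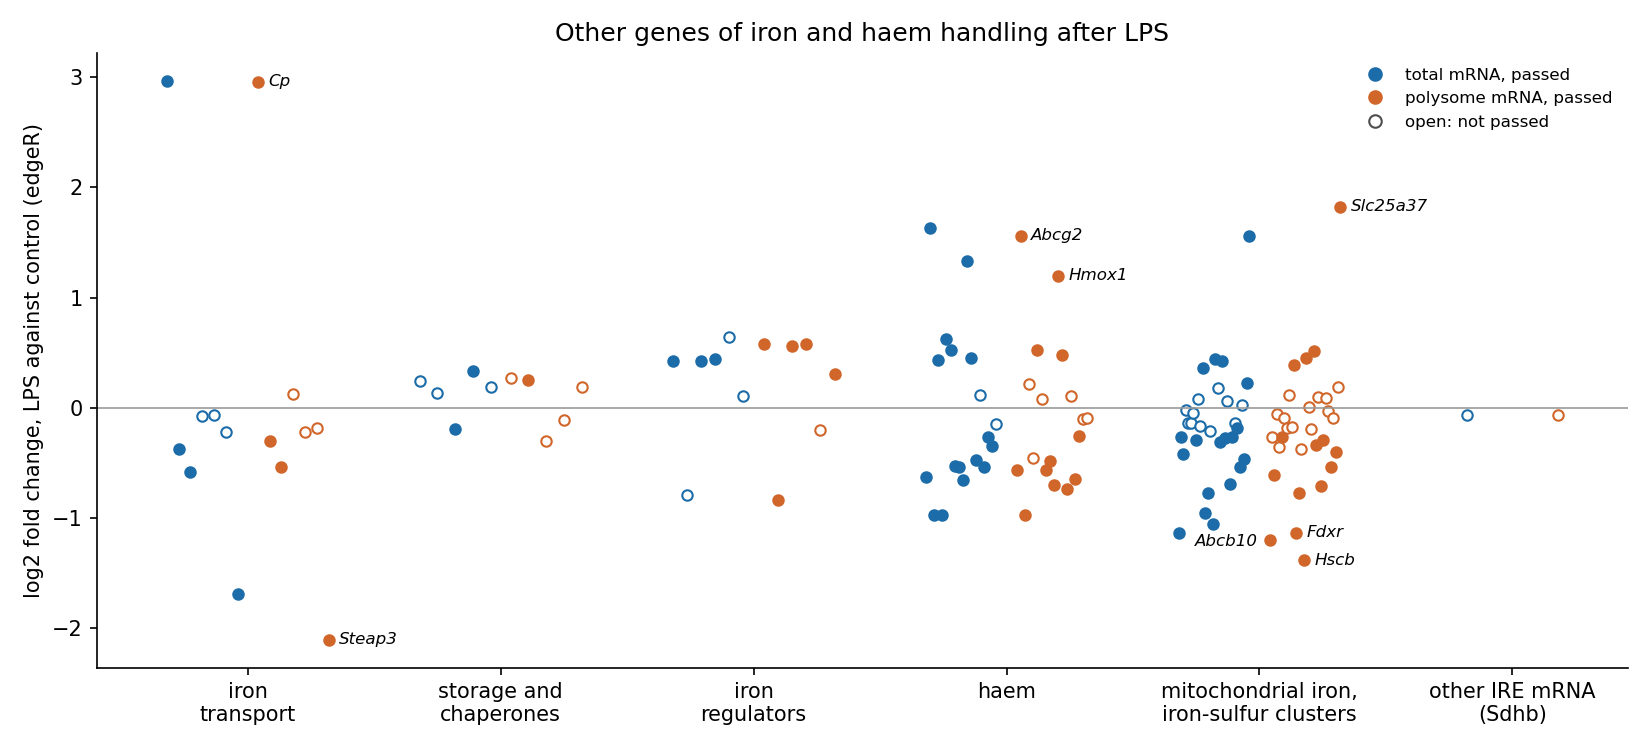
Log2 fold change of LPS against control for the 67 further iron and haem genes in total (blue) and polysome mRNA (orange), by list; filled points passed and the 8 genes with changes of at least 2-fold are named. Cp has the highest value, 2.97 in total mRNA, and Steap3 the lowest, −2.10 in polysome mRNA.

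For the members that passed with LPS in polysome mRNA, the genes with the most similar pattern were taken by Pearson's r of log2 CPM over the 18 libraries, which come from 9 lysates and fall into treatment groups, so that r describes shared steps between groups. Slc11a2 was closest to Slc7a7 (0.992), Pik3ap1 (0.990) and Hilpda (0.986). Slc39a14 was closest to Itgal (0.965), Sdc4 (0.965) and Arih2 (0.963), and Slc11a1 to Gmeb2 (0.974), Notch1 (0.972) and Tmco3 (0.966). Fth1 resembled Erbb2ip (0.973), Fyco1 (0.970) and Nub1 (0.964), Tfrc resembled Ttc37 (0.961), Cdv3 (0.958) and Pphln1 (0.958), and Ireb2 resembled Mynn (0.969), Arfgef1 (0.963) and Kdm4c (0.959). None of these 18 genes was on the iron and haem lists, which hold only 77 of all 11243 genes, so that this says little about iron genes.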

How the data were processed

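Per the study's methods, ribosomal RNA was depleted, libraries were stranded and read from both ends, Hisat2 placed the reads on GRCm38, and featureCounts gave counts of each gene. The deposited values are raw counts without normalization, for protein-coding genes with at least 1 count in every library. The authors ran the nextflow RNAseq pipeline at default settings with Ensembl annotation; the release, and how those defaults treat strands and reads with several hits, were not found in the sources used here. The labels gave the groups, and all 18 columns were used.

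Counts were tested in R 4.3.3 with edgeR 4.0.16 (TMM, quasi-likelihood, Benjamini-Hochberg over 11243 genes, adjusted p at most 0.25). TMM and this threshold are those of the study's methods, while the test is not. Total and polysome mRNA were each fitted over 9 libraries with the treatment as factor, and polysome against total and the interaction over 18 libraries in 6 groups. The study's own tool, anota2seq, was not installed. Alternatives were DESeq2 1.42.0, RLE factors, at least 10 counts in every library, an adjusted p of at most 0.05, each experiment left out, a replicate block, the compared treatments alone, analysis of partial variance with limma 3.58.1, and, added after the data were seen, library totals. Scripts were tested on simulated data with large planted changes and no pairing of lysates, which does not show whether small shifts would pass.

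Named were all 10 members, further list genes passing with LPS at a log2 change of at least 1 in the same direction in all experiments, and for members passing with LPS in polysome mRNA the 3 most similar genes. The members and lists were chosen with earlier results of these data known. Lengths, positions and sequences come from GENCODE release M21 (GRCm38), which matched 10716 of 11243 genes and may not be the release the authors counted with.

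Total and polysome libraries come from the same lysate, per the study's methods, and deviations from the group means correlated at r = 0.374 to 0.631 over 9 pairs. Libraries of total mRNA with the same experiment number correlated at 0.149 to 0.412 over 9 pairs, so that the numbers pair them.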

Additional observations from a re-analysis of the deposited data

How the results depend on the processing

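Over the alternatives 778 of 870 values of the members kept their direction and their side of the threshold, 43 no longer passed, 18 newly passed, 4 that passed in at least 1 fit changed sign, and 27 that passed in none changed sign. For the further named genes these were 298 of 320 kept, 14 lost, 3 gained and 5 with another sign but not passing. The 4 sign changes of which the value passed in at least 1 of the fits compared were Ftl1 (−0.32) and Ncoa4 (0.20) for LPS in total mRNA without experiment 2 (leaving out each experiment gave −0.32 to 0.27 for Ftl1 and −0.20 to 0.20 for Ncoa4), and Ftl1 (−0.32) and Ireb2 (−0.14) for LPS in total mRNA with library totals. The cause was not tested.

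At an adjusted p of at most 0.05 the members passing for torin1 against LPS were 4 instead of 7 in total and 3 instead of 6 in polysome mRNA, and 3 instead of 5 for polysome against total with torin1. All genes passing were then 3279 instead of 6038 and 1557 instead of 4322 for torin1, 3654 instead of 6191 for LPS in polysome mRNA, and 4841 instead of 7328 with LPS and 3481 instead of 6252 with torin1 for polysome against total. The further iron and haem genes went from 34 to 19, from 28 to 7, from 37 to 23 and, for polysome against total with torin1, from 39 to 23. In the interaction, where edgeR passed 0 genes, DESeq2 passed 1 and 13 and analysis of partial variance 13 and 24, for LPS and torin1.

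Leaving out each experiment gave 3959 to 5385 genes for torin1 in total mRNA, and in polysome mRNA 3901 to 7251 genes and 18 to 43 further iron genes for LPS, and 1187 to 5182 genes, 2 to 27 further iron genes and 2 to 6 members for torin1. Among the members Slc40a1 rests on the fewest counts (27 to 216 a library).

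With a replicate block the members passing for polysome against total with torin1 were 8 instead of 5 and all genes 7926 instead of 6252, and 25 genes instead of 0 passed the torin1 interaction. Polysome libraries of different treatments with the same experiment number did not all deviate together (r from −0.089 to 0.724, and 12 of 18 correlated best with their own number). Their median r was 0.338, beside −0.142 for different numbers, and in total mRNA these medians were 0.341 and −0.148. The numbers thus pair the polysome libraries too, though not in every pair, and the main fit left this pairing out. In polysome mRNA the block raised all genes passing from 6191 to 7062 for LPS and from 4322 to 5587 for torin1, and added Aco1 for LPS (−0.24, edgeR adjusted p = 0.149) and Slc11a2 (0.25, 0.1804) for torin1 among the members and Hscb for torin1 (0.59, 0.153). Beside these and the calls given with the report's values it changed no other call of a member or further named gene.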

Other observations

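The calls of some further named genes for torin1 against LPS changed with the processing. Steap3 gave −0.52 ± 0.31 in total mRNA (edgeR adjusted p = 0.245), which was lost without experiment 2 (−0.40, 0.553) or 3 (−0.32, 0.662), with library totals (−0.46, 0.318) and with control libraries left out of the fit (−0.52, 0.309). In polysome mRNA it gave −0.55 ± 0.24 (edgeR adjusted p = 0.149), and Cp gave 0.88 ± 0.32 (0.0906), each lost without experiment 3 (−0.51, 0.530 and 0.81, 0.406). Hmox1 gave 0.73 ± 0.15 in polysome mRNA (edgeR adjusted p = 0.0126), lost without experiment 3 (0.58, 0.261). Abcb10 gave 0.68 ± 0.23 (edgeR adjusted p = 0.0791), lost without experiment 1 (0.54, 0.396) or 3 (0.78, 0.322). Hscb gave 0.55 ± 0.39 (edgeR adjusted p = 0.383) and did not pass, except without experiment 2 (0.73, 0.0958) and with the replicate block (0.59, 0.153).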
